A study of Danio rerio with 42 samples.

Results

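Complement and coagulation genes encode the plasma proteins that opsonize and lyse microbes and that form, limit and dissolve the blood clot. A list of 46 zebrafish gene symbols was followed across all 10 groups of the study, and 42 of them were found in both the larval and the adult tables. The symbols mbl2, c4b, cfi and c7b matched no row in either table. The adult tables held 43 Ensembl genes under these 42 symbols, because c6 stood for a pair of overlapping gene models. The larval table held 25935 genes in all and the tables of adult liver held 25680 genes.

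The groups came from AB-strain siblings that were exposed to EtOH in the water from 12 hours to 5 days post fertilization (embryonic alcohol exposure, EAE) or to 0% EtOH (control), and were then raised without it. The 12 larval samples were pools of 15 whole larvae collected at 13 dpf after a high-fat, high-cholesterol (HFHC) diet or a normal diet (ND) from day 6. They formed 4 groups of 3, EAE (1% EtOH) on HFHC diet, control on HFHC diet, EAE on ND and control on ND. The 30 adult samples were whole livers of single fish, 5 for each of 0%, 0.5% and 1% EtOH after 8 weeks of HFHC diet and 5 for each of the same exposures after 8 weeks of ND, with the diets starting at 65 dpf. Sex was not in the labels. The paper writes of male fish where it discusses the liver transcripts of EAE adults on HFHC diet. Nothing in the labels tied replicates to separate clutches or tanks, so p-values measured the spread between these samples only. In whole larvae and in livers alike, fewer cells of a type and less RNA per cell cannot be told apart.

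Most of these proteins are made by hepatocytes and secreted into plasma. Complement is started by C1q on antibody, by lectins with their MASP proteases, or by the alternative pathway of factors B and D, and each route cleaves C3 and C5 and ends in the membrane attack complex of C6 to C9. Coagulation is started by tissue factor, runs through factors VII, IX, X and V to thrombin, and ends with the cleavage of fibrinogen. Antithrombin, heparin cofactor II and protein C hold it back, and plasmin dissolves the clot. C1q is an exception to the hepatic origin and is made largely by macrophages, as tissue factor is made by cells outside the vessel lumen.

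Total counts ranged from 8131371 to 12963071 in livers and from 18582927 to 39115243 in larval pools. The genes of the list took 2.80% to 11.2% of liver counts and 0.292% to 0.408% of larval counts. Levels between samples are given as CPM, counts scaled to a common library size by the trimmed mean of M-values (TMM). Hepatocyte markers summed to 55920 to 254200 CPM in livers and to 14580 to 18130 CPM in larvae. Female liver and egg protein genes, taken as a list, summed to 14.39 to 259.3 CPM in livers. Within that list vtg1 stood at 0.327 to 6.74 CPM, and sex was not inferred from these levels. In 6 livers, markers of intestinal epithelium summed to over 5000 CPM. They were control ND livers 1, 2 and 3, 1% EtOH ND livers 3 and 5, and 0.5% EtOH HFHC liver 2. Each liver comparison they entered was also computed without these 6, and those with control ND livers also without control ND livers 2 and 3 together. Overlapping gene models joined 5 pairs of the list, f7i with f10, c3a.2 with c3a.3, c3b.1 with c3b.2, c8a with c8b, and the c6 pair. The counting strand was not given in the sources used here, so the split of reads within these pairs is uncertain, and c3a.1 to c3a.3 and c3b.1 to c3b.2 are near copies as well.

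Levels of different genes were compared in TPM (transcripts scaled by gene length and library size), which correct for length, as the authors deposited them. Averaged over the 12 larval pools, cfd, which encodes the alternative-pathway protease factor D, stood at 585.6 ± 65.4 TPM (SD, n = 12) and led the list. The fibrinogen chains followed, with fgg at 253.8 ± 29.9, fga at 243.8 ± 26.4 and fgb at 229.8 ± 27.1 TPM (SD, n = 12). These 3 chains of the clot protein overlapped in range and were not separated from each other. The C3 gene c3a.1, the highest of the listed C3 genes, reached 179.5 ± 27.2 TPM and the pore-forming c9 reached 112.7 ± 14.7 TPM (SD, n = 12). At the low end were masp1 (3.14 TPM), f9a (1.86 TPM), c4 (0.747 TPM) and f13b (0.0462 TPM). The f13b gene, for the B subunit of factor XIII, had 0 to 2 counts in each larval pool and was not tested there, which left 41 tested genes.

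The liver and larval tables were made and normalized separately, so these values describe the tables and were not tested. The ratio of the liver median to the larval median in CPM had a median of 15.7 over the 40 symbols with a ratio, lay above 10 for 29 of them, between 1 and 10 for 7 and below 1 for 4. The highest ratios belonged to f9a (81.0, from 124.4 CPM in livers and 1.53 CPM in larvae) and c4 (70.4, from 205.1 and 2.92 CPM). The plasma subunit gene f13b, at or near 0 in larvae, had a median of 52.1 CPM in livers. The c6 gene was given no ratio, because livers held a pair of models for it. Their liver medians were 14.2 CPM for the longer model and 3.00 CPM for the shorter. Both lay below the c6 median of 33.2 CPM in larvae. From start to end the models share 45148 bases, introns included, and the overlap of their exons was not measured. How reads falling on both were counted is not given. So these medians do not show that c6 was lower in livers. The 4 genes with a ratio below 1 were the tissue factor genes f3a (0.0381) and f3b (0.0775), the terminal complement gene c7a (0.101) and cfd (0.112). The 3 C1q chain genes had the lowest ratios above 1. These were 1.16 for c1qa (2.49 CPM in livers and 2.15 CPM in larvae), 1.45 for c1qc (3.27 and 2.26 CPM) and 2.06 for c1qb (3.54 and 1.72 CPM). The genes with the least liver excess thus included tissue factor and C1q, made outside hepatocytes in the textbook view, along with c7a and cfd. Next came f7i (3.43) and f10 (6.04), whose models overlap. The cells of origin were not tested.

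**Figure D1:**
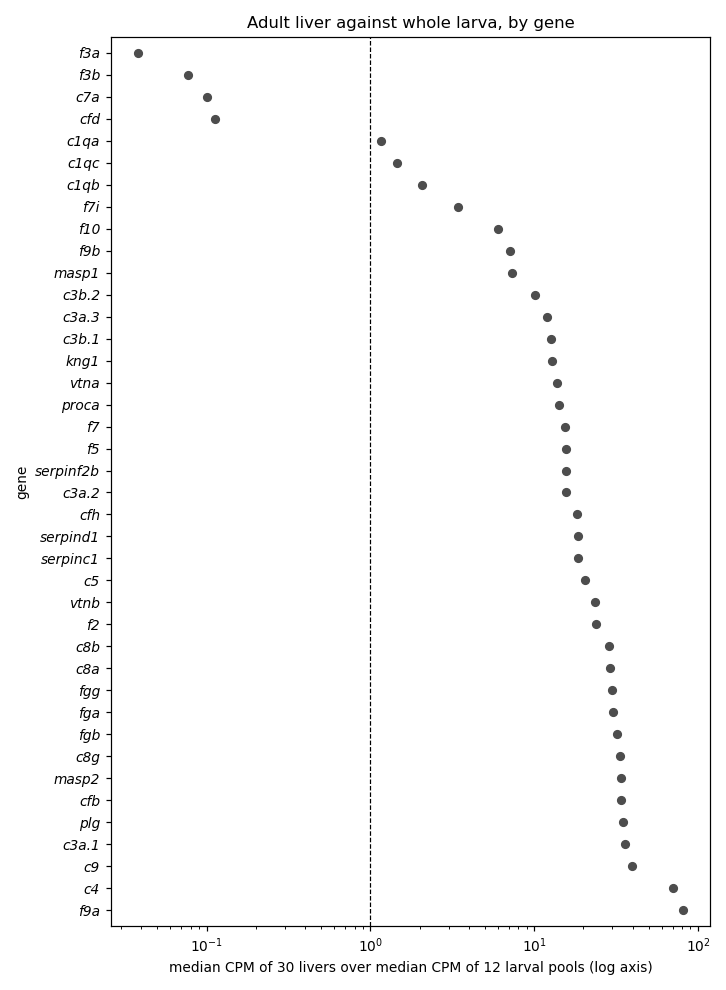
Each point is 1 gene, placed on a log axis at the median CPM of 30 livers over the median CPM of 12 larval pools, with the dashed line at equality. The tissue factor genes f3a and f3b, c7a and cfd lie left of the line, the C1q genes right of it at 1.16 to 2.06, and 29 genes lie above 10.

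The C3 genes of the list were divided differently in livers and larvae. The c3a.1 gene held 77.1% of the counts of the 5 listed C3 genes in livers (median, range 71.6% to 81.6%) and 53.7% in larvae (median, range 49.6% to 56.2%). The ranges did not overlap. The share of c3b.1 was 4.05% in livers and 8.79% in larvae, and that of c3b.2 was 2.89% in livers and 7.596% in larvae. All of these shares rest on the authors' assignment of reads among near copies. The c3a.1 model overlaps no other on the list, while c3a.2 shares 37058 bases with c3a.3 and c3b.1 shares 56035 with c3b.2. These overlaps run from start to end of the models, introns included. Liver reads were counted on exons, and the overlap of exons was not measured. Reads on shared bases may have been counted differently in livers and larvae, as the larval counting program is not given. The part of counting in the contrast was not tested. They leave out C3 genes that are not on the list, such as c3a.5 and c3a.6. The mean of c3a.6 over all larval pools was 49.3 CPM, so these are not shares of all C3 counts.

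HFHC diet went with higher levels of many of these genes in EAE and in control larvae, and no gene of the list fell. In EAE larvae 22 of the 41 tested genes rose on HFHC diet, which is 53.7%, where 12.3% of all 19657 tested genes changed in either direction and 8.19% rose (edgeR's quasi-likelihood test, Benjamini-Hochberg adjusted p under 0.05). In control larvae 17 of 41 rose, which is 41.5%, where 17.1% of all genes changed in either direction and 9.58% rose. The median log2 fold change of the 41 genes was 0.31 in EAE larvae and 0.26 in control larvae, beside medians of -0.0012 and 0.012 over all genes. Summed over the list, EAE larvae had 3390, 3485 and 3814 CPM on HFHC diet (ordered by level), against 2866, 2910 and 3148 CPM on ND. Control larvae had 3788, 3873 and 4037 CPM on HFHC diet, against 3167, 3329 and 3507 CPM on ND. On neither exposure did the diets overlap. Taken gene by gene, the diets had no overlap for 26 of the 41 genes in EAE larvae and 25 in control larvae. Of all genes, 31.3% and 35.6% had none, so a lack of overlap is common with 3 pools per group.

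**Figure D2:**
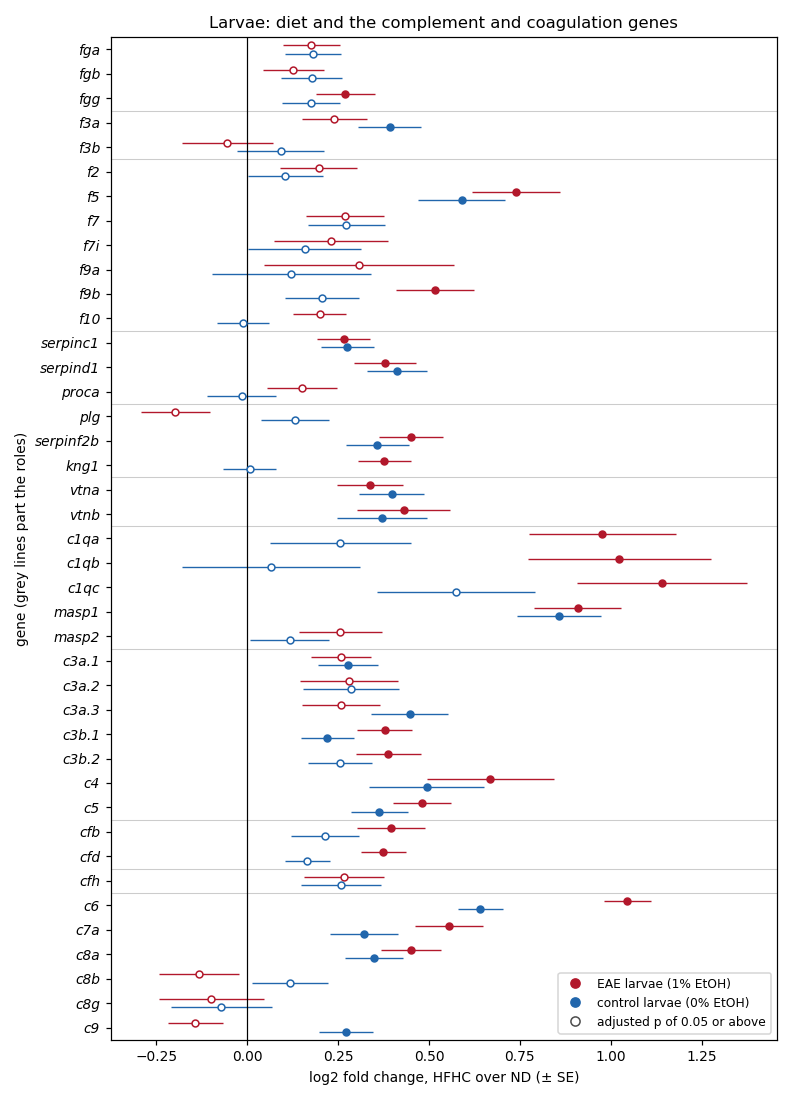
Log2 fold change of HFHC diet over ND with its standard error for the 41 tested genes, ordered by role, in EAE larvae (red) and control larvae (blue); filled points passed the adjusted p of 0.05. Most points lie right of 0, c6 and masp1 lie far right in both exposures, and the C1q genes are filled in EAE larvae only.

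Of the genes called, 13 rose on HFHC diet in both exposures, 13 of the 22 in EAE larvae and 13 of the 17 in control larvae. The share of all genes called in both exposures was not computed, so this overlap has no baseline here. These comparisons set different pools against each other, but both came from 1 fit of all 12 pools. They share its estimate of spread, filter and scaling, so they are not independent. The 13 were f5, serpinc1, serpind1, serpinf2b, vtna, vtnb, masp1, c3b.1, c4, c5, c6, c7a and c8a. A further 9 passed only in EAE larvae (fgg, f9b, kng1, c1qa, c1qb, c1qc, c3b.2, cfb, cfd) and 4 only in control larvae (f3a, c3a.1, c3a.3, c9). That a gene passed in 1 exposure alone does not show that the exposures differed, and the test of the difference is given further on.

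Terminal complement held the clearest gene. The c6 gene (chromosome 21, 20758940 to 20896022 on GRCz10 for the longer of its adult models) encodes the component that joins C5b to begin the membrane attack complex. It stood at 45.4, 43.1 and 45.4 CPM in EAE larvae on HFHC diet, against 21.4, 22.2 and 21.2 CPM in EAE larvae on ND. In control larvae it stood at 38.6, 42.2 and 42.0 CPM on HFHC diet, against 25.1, 25.9 and 27.7 CPM on ND. The diets were far apart in both exposures, with a log2 fold change of 1.05 ± 0.064 (SE, adjusted p = 1.14e-07, edgeR) in EAE larvae and 0.64 ± 0.062 (adjusted p = 4.49e-06, edgeR) in control larvae. Its neighbours in the complex differed among themselves. The c7a gene (chromosome 8, 31863760 to 31890097) had 46.01, 41.6 and 40.3 CPM in EAE larvae on HFHC diet, against 27.5, 31.0 and 28.4 CPM on ND, and rose by 0.55 ± 0.094 log2 (SE, adjusted p = 0.00113, edgeR). The c8a gene (chromosome 2, 2374646 to 2390764) had 33.8, 30.5 and 30.8 CPM in EAE larvae on HFHC diet, against 26.8, 22.1 and 20.8 CPM on ND, and rose by 0.45 log2 there and by 0.35 log2 in control larvae. Its overlapping partner c8b did not pass in either exposure, with -0.13 ± 0.11 log2 in EAE larvae and 0.12 ± 0.10 log2 in control larvae (SE), and c8g did not pass either. The pore subunit c9 passed in control larvae alone, at 0.27 ± 0.075 log2 (SE, adjusted p = 0.0213, edgeR), a call lost in 3 of 6 fits with 1 pool left out (adjusted p up to 0.121), and stood at -0.14 ± 0.076 log2 in EAE larvae (adjusted p = 0.242, edgeR).

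Among the genes that recognize targets, masp1 (chromosome 15, 36329471 to 36365888), a protease that rides on lectins, was next. It had 10.9, 9.24 and 9.95 CPM in EAE larvae on HFHC diet, against 5.22, 5.34 and 5.45 CPM on ND. Control larvae had 10.1, 10.2 and 10.2 CPM on HFHC diet, against 4.51, 5.77 and 6.38 CPM on ND. No HFHC pool overlapped an ND pool, and the log2 fold changes were 0.91 ± 0.12 (SE, adjusted p = 0.000137, edgeR) in EAE larvae and 0.86 ± 0.11 (adjusted p = 0.000116, edgeR) in control larvae. Its relative masp2, the protease that cleaves C4 and C2, did not pass in either.

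The C1q chain genes, singled out here after their values were seen, lie side by side on chromosome 21 (22675702 to 22688375). The c1qc gene had 3.15, 2.51 and 4.17 CPM in EAE larvae on HFHC diet, against 1.89, 1.54 and 0.987 CPM on ND, and c1qa had 2.70, 3.53 and 3.37 CPM against 1.74, 1.76 and 1.35 CPM. The diets did not overlap for either chain. Their log2 fold changes in EAE larvae were 1.14 ± 0.23 for c1qc, 1.02 ± 0.25 for c1qb and 0.98 ± 0.20 for c1qa (SE, adjusted p = 0.00434, 0.0135 and 0.00465, edgeR). In control larvae they were 0.57 ± 0.22, 0.066 ± 0.24 and 0.26 ± 0.19, and none passed. The 3 chains had few reads in larvae, with 26 counts for c1qa, 13 for c1qb and 19 for c1qc in EAE ND pool 3. With 1 pool left out, the c1qb change in EAE larvae ran from 0.73 to 1.235 log2. Of 9 tested macrophage markers, 8 rose and 1 fell on HFHC diet in EAE larvae and 6 rose in control larvae. Among all genes 8.19% rose in EAE larvae and 9.58% in control larvae. The summed level of the macrophage markers was 432.6 to 447.8 CPM in EAE larvae on HFHC diet against 472.1 to 511.1 CPM on ND. The sum was carried by lgmn, at 334.9 CPM on HFHC diet against 424.9 CPM on ND in EAE larvae, the marker that fell. The most abundant marker that rose was grn1 (24.3 CPM against 15.3 CPM), and the scavenger receptor marco rose by 1.65 log2. Their part in the C1q result was not tested.

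The central components moved with smaller steps. C5, the source of the anaphylatoxin C5a and of C5b, is encoded by c5 (chromosome 5, 62764794 to 62816203). It had 78.9, 68.5 and 72.0 CPM in EAE larvae on HFHC diet, against 57.7, 49.0 and 50.3 CPM on ND, and 78.9, 78.4 and 77.6 CPM in control larvae on HFHC diet, against 58.5, 68.5 and 56.6 CPM on ND. It rose by 0.48 ± 0.080 log2 in EAE larvae and by 0.36 ± 0.079 log2 in control larvae (SE, adjusted p = 0.00099 and 0.00582, edgeR), without overlap. Of the 7 tested genes for C3, C4 and C5, 4 rose in EAE larvae and 5 in control larvae, where 8.19% and 9.58% of all genes rose. All 7 had positive estimates in each exposure. The alternative-pathway genes cfd and cfb passed in EAE larvae alone. There cfd (chromosome 13, 13550689 to 13553342) had 287.5, 284.0 and 307.1 CPM on HFHC diet, against 238.5, 209.6 and 229.1 CPM on ND, a difference of 0.37 ± 0.062 log2 (SE, adjusted p = 0.000982, edgeR). In control larvae it differed by 0.17 ± 0.062 log2 (SE, adjusted p = 0.0777, edgeR). The regulator gene cfh did not pass in either exposure.

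On the coagulation side 9 of 20 tested genes rose in EAE larvae and 7 of 20 in control larvae, where 8.19% and 9.58% of all genes rose. Factor V, the cofactor of factor Xa, stood out. The f5 gene (chromosome 9, 34317821 to 34338811) had 89.7, 65.4 and 63.6 CPM in EAE larvae on HFHC diet, against 51.3, 39.3 and 40.3 CPM on ND. In control larvae it had 65.6, 79.5 and 75.5 CPM on HFHC diet, against 49.9, 49.5 and 47.6 CPM on ND. It rose by 0.74 ± 0.12 log2 in EAE larvae and by 0.59 ± 0.12 log2 in control larvae (SE, adjusted p = 0.000899 and 0.00374, edgeR). No other coagulation factor gene passed in control larvae, and f9b was the other factor called in EAE larvae, at 0.52 ± 0.11 log2 (SE, adjusted p = 0.00462, edgeR). The genes f2 (prothrombin), f7, f7i, f9a and f10 did not pass in either exposure.

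The inhibitors rose as well. Heparin cofactor II, which blocks thrombin, is encoded by serpind1 (chromosome 8, 1761000 to 1776527). It had 42.7, 35.1 and 35.2 CPM in EAE larvae on HFHC diet, against 30.7, 29.2 and 26.8 CPM on ND, and 42.1, 44.8 and 41.9 CPM in control larvae on HFHC diet, against 31.4, 35.4 and 30.5 CPM on ND. It rose by 0.38 log2 in EAE larvae and by 0.41 log2 in control larvae (adjusted p = 0.00781 and 0.0035, edgeR). Antithrombin (serpinc1) and the plasmin inhibitor gene serpinf2b rose in both exposures too, while the protein C gene proca did not pass in either. Both vitronectin genes rose in both exposures, and vtna had 30.2, 28.4 and 31.2 CPM in control larvae on HFHC diet, against 21.7, 25.4 and 21.6 CPM on ND (0.40 ± 0.089 log2, SE, adjusted p = 0.00714, edgeR).

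The clot substrate and its starter behaved less uniformly. Of the fibrinogen chains, fgg passed in EAE larvae (0.27 ± 0.081 log2, SE, adjusted p = 0.0396, edgeR), with overlapping diets and the call lost in 5 of 11 alternatives, and fga and fgb did not pass in either exposure. The tissue factor gene f3a (chromosome 24, 31340149 to 31353495) had 15.8, 13.9 and 15.9 CPM in control larvae on HFHC diet, against 12.1, 11.8 and 11.1 CPM on ND, and rose by 0.39 ± 0.087 log2 (SE, adjusted p = 0.00667, edgeR). Its copy f3b did not pass. The kng1 gene, for kininogen, the source of bradykinin, had 93.9, 87.5 and 93.1 CPM in EAE larvae on HFHC diet, against 77.0, 71.1 and 63.0 CPM on ND, a rise of 0.38 ± 0.073 log2 (SE, adjusted p = 0.00279, edgeR). In control larvae it stood at 85.4, 82.1 and 82.3 CPM on HFHC diet, against 78.7, 90.6 and 80.4 CPM on ND, and the diets overlapped. Plasminogen (plg) did not pass in either exposure, at -0.20 ± 0.095 log2 in EAE larvae and 0.13 ± 0.094 log2 in control larvae (SE).

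**Figure D3:**
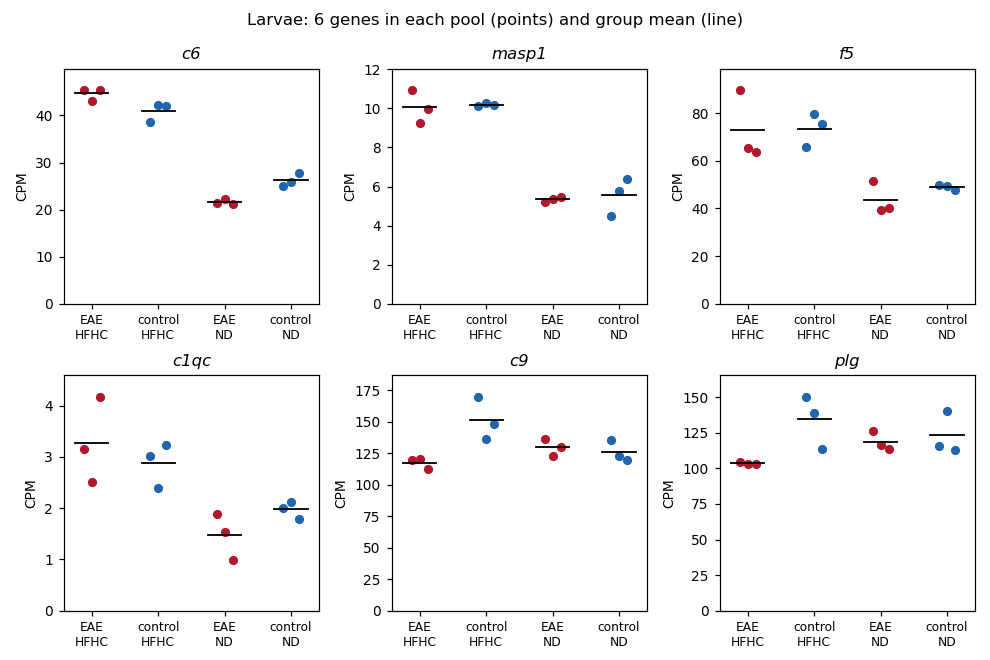
CPM of c6, masp1, f5, c1qc, c9 and plg in each larval pool (points, 3 per group) with the group mean (line), for EAE larvae (red) and control larvae (blue). The c6 and masp1 pools on HFHC diet all lie above those on ND, while the group means of c9 and plg are lowest in EAE larvae on HFHC diet.

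The counts above depended in part on single pools. Leaving out 1 pool at a time gave 17 to 23 called genes in EAE larvae and 9 to 15 in control larvae, with 9 when control ND pool 3 was left out and 10 when control HFHC pool 1 was left out. Over all genes these fits called 1525 to 1850 in EAE larvae, against 2421 from all pools, and 1868 to 3415 in control larvae, against 3368 from all pools. In control larvae c5, c6, c8a, f3a, f5, masp1, serpind1 and vtna passed in each of these fits, while c3b.1, c4 and vtnb each failed in 5 of the 6, and c9, c7a, c3a.1 and serpinc1 in 3 of the 6. Over all 11 alternatives, the call in control larvae was lost in 10 for c3b.1, 9 for c4 and 8 for vtnb. The overlap of 13 genes between the exposures thus includes these 3, which rest on the fit chosen. It also includes serpinc1, c7a and vtna, each lost in at least 3 of the 6 fits with 1 pool left out in 1 exposure or both. In EAE larvae fgg, serpinc1, vtna and vtnb failed in 4 of the 6, c4 in 3 and cfb in 2, while c6, c5, masp1, f5, cfd, c7a, c8a, kng1 and the C1q chains passed in each of the 6.

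Of 44 further genes of the same pathways that were tested, 10 rose and 1 fell on HFHC diet in EAE larvae, and 10 rose and 2 fell in control larvae. Among all genes 8.19% rose in EAE larvae and 9.58% in control larvae. The collectin gene colec11, for a lectin that works with MASP proteases, rose by 1.21 ± 0.19 log2 in EAE larvae and by 1.17 ± 0.19 log2 in control larvae (SE, adjusted p = 0.000706 and 0.000654, edgeR). The von Willebrand factor gene vwf rose by 0.75 and 0.71 log2. The tissue factor pathway inhibitor tfpia and the leukocyte integrin gene itgb2 also rose in both. In EAE larvae f8, c1s, serping1, plaub, cd59 and c3a.5 rose and cfhl1 fell. In control larvae c3a.6, cfhl2, cfhl4, f2rl1.1, itgam and serpina10a rose and c1qbp and hgfa fell.

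Beside these changes, hepatocyte markers as a list were mixed. Of 19 tested, 3 rose and 5 fell on HFHC diet in EAE larvae and 1 rose and 2 fell in control larvae, and the summed level was 15310 to 16970 CPM in EAE larvae on HFHC diet against 15340 to 16180 CPM on ND, and 16510 to 17670 CPM in control larvae on HFHC diet against 14580 to 18130 CPM on ND. In EAE larvae fabp10a, agt and ttr rose and fetub, ahsg1, cyp2ad2, gc and serpina1l fell. The most abundant of these, fetub, had 621.7 ± 49.9 CPM on HFHC diet and 1041 ± 155.5 CPM on ND (SD, n = 3 each; -0.74 log2, adjusted p = 0.0019, edgeR), and fabp10a had 707.1 ± 18.1 CPM on HFHC diet and 489.2 ± 46.5 CPM on ND (SD, n = 3 each; 0.53 log2, adjusted p = 0.00069, edgeR). Acute phase genes rose in 6 and fell in 1 of 15 in EAE larvae, and rose in 9 of 15 in control larvae. Neutrophil markers rose in 3 of 6 in EAE larvae and in 4 of 6 in control larvae, where 8.19% and 9.58% of all genes rose. The paper names crp6 of the acute phase list and il1b and mmp9 of the neutrophil list among diet changes in control larvae. So these counts are not independent of earlier results. In the EAE HFHC pools, neutrophil markers summed to 1199, 1705 and 1996 CPM beside 6103, 9684 and 11700 CPM of exocrine pancreas markers. Erythrocyte markers rose in 5 of 5 in EAE larvae and in 0 of 5 in control larvae. The part of any of these in the results for the complement and coagulation genes was not tested.

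Between EAE and control larvae the estimates for the list lay mostly below 0, and a single gene passed. On ND, 1.31% of all genes changed and 0.458% were lower in EAE larvae, and of the 41 genes c6 alone passed. It had 21.4, 22.2 and 21.2 CPM in EAE larvae, against 25.1, 25.9 and 27.7 CPM in control larvae, without overlap, and fell by 0.28 ± 0.065 log2 (SE, adjusted p = 0.0466, edgeR). Here 10 of the 41 genes had no overlap, as had 20.2% of all genes. The call of c6 was close to the threshold. With 1 pool left out its adjusted p by edgeR was 0.0499 to 0.159 and it was lost in 5 of 6 fits, and it was also lost when only the 6 ND pools were fitted (adjusted p = 0.0879, edgeR). The count over all genes rested on single pools as well, with 257 genes called from all pools and 7 without control ND pool 2, 28 without EAE ND pool 1 and 32 without EAE ND pool 3. Over the 41 genes the log2 fold change had its median at -0.16, beside -0.0026 over all genes, and 37 of them had negative estimates. An unadjusted p under 0.05 was reached by 15 genes, all lower in EAE larvae, which is 36.6% of the list where 15.6% of all genes reached it. That count was 5 without control ND pool 2, 7 without EAE ND pool 3 and 8 without EAE ND pool 2. Among the 15 were f9a, f9b, f10, kng1, the 3 fibrinogen chains, c3a.1, c3b.1, c4 and c5, and none but c6 passed the adjustment. The f10 gene, for the factor that activates prothrombin, had 91.1, 86.2 and 84.1 CPM in EAE larvae, against 99.95, 107.8 and 101.3 CPM in control larvae (-0.24 ± 0.072 log2, SE, adjusted p = 0.104, edgeR). Hepatocyte markers were also mostly below 0 on ND, with 4 of 19 positive, a median of -0.069 and ttr called (-0.88 log2), while their summed level was 15340 to 16180 CPM in EAE larvae against 14580 to 18130 CPM in control larvae. All 5 tested erythrocyte markers had negative estimates, their sum was 217.5 to 256.6 CPM in EAE larvae against 300.5 to 322.2 CPM in control larvae, and the globin genes hbaa1 and hbba1 fell by 3.77 and 4.07 log2 (adjusted p = 0.000542 and 0.00123, edgeR). The part of these markers was not tested. Among 44 further pathway genes, plaub, a urokinase gene, fell by 0.53 log2 (adjusted p = 0.0295, edgeR).

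On HFHC diet, 0.234% of all genes changed and no gene of the list passed. The 46 genes called were 8 to 12 when control HFHC pool 1 or 2 or any of the 3 EAE HFHC pools was left out. The smallest p belonged to c9 (chromosome 5, 31745034 to 31755136), with 119.9, 120.5 and 112.5 CPM in EAE larvae, against 169.8, 136.4 and 148.1 CPM in control larvae (-0.37 ± 0.076 log2, SE, adjusted p = 0.0604, edgeR). The groups did not overlap for c9, which held for 12 of the 41 genes and for 14.3% of all genes. The plg gene followed with 104.6, 103.2 and 103.3 CPM in EAE larvae, against 150.2, 139.1 and 113.6 CPM in control larvae (-0.38 ± 0.094 log2, SE, adjusted p = 0.127, edgeR). DESeq2 called both, and the fit without a filter on low counts called c9. An unadjusted p under 0.05 was reached by 10 genes, 9 lower and 1 higher in EAE larvae, which is 24.4% of the list where 8.31% of all genes reached it, and by 5 without control HFHC pool 1 and 6 without EAE HFHC pool 2. The list's median was -0.071, beside 0.0050 over all genes. Hepatocyte markers had a lower median, -0.15, with 6 of 19 at an unadjusted p under 0.05 and none called, and summed to 15310 to 16970 CPM in EAE larvae against 16510 to 17670 CPM in control larvae. Their part was not tested. The EtOH and diet comparisons share their samples, so a low EAE ND level enters both.

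Whether the diet difference differed between EAE and control larvae was tested as an interaction, for which 0.254% of all genes passed and no gene of the list did. An unadjusted p under 0.05 was reached by 7 genes of the list, 17.1% of it, near the 13.8% of all genes that reached it. With 1 pool left out, 15 to 386 of all genes passed, against 50 from all pools. The difference was 0.40 ± 0.089 log2 for c6 (SE, 95% interval 0.22 to 0.59, adjusted p = 0.0583, edgeR), -0.41 ± 0.11 log2 for c9 (interval -0.64 to -0.19, adjusted p = 0.095) and 0.37 ± 0.10 log2 for kng1 (interval 0.15 to 0.59, adjusted p = 0.118). The C1q chains c1qa and c1qb had 0.72 ± 0.28 and 0.96 ± 0.35 log2 (SE, adjusted p = 0.259 and 0.23, edgeR). DESeq2 called c6 and c9, and the fit without a filter called c6. The 4 groups of c6 did not overlap at any step of their order, EAE ND lowest, then control ND, control HFHC and EAE HFHC. The share of all genes with 4 groups apart was not computed, so this order has no baseline and adds nothing to the test.

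In the livers no gene of the list passed in any of the 9 comparisons by edgeR's quasi-likelihood test, while the levels varied widely between single livers. DESeq2 called cfd, c4, c8a and proca, each in 1 comparison named below, and no gene in the rest. Summed over the list, the level ran from 20530 CPM in control ND liver 3 to 131800 CPM in 0.5% EtOH HFHC liver 5. Control ND liver 3 was low across the list, with a median deviation of -1.82 log2 from the mean of all livers, and control ND liver 2 was the next lowest at -0.63. Liver 3 also had 24340 CPM of intestinal epithelium markers and 55920 CPM of hepatocyte markers, the highest and the lowest of all 30 livers, and liver 2 had 8287 and 101900 CPM. The abundant intestinal marker fabp2 stood at 4149 CPM in liver 3, against 24.5 CPM in the median liver. The 0.5% EtOH HFHC liver 5, at the other end, had a deviation of 0.64 log2 and the highest level of the acute phase gene crp, 1638 CPM, against a median of 219.2 CPM.

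**Figure D4:**
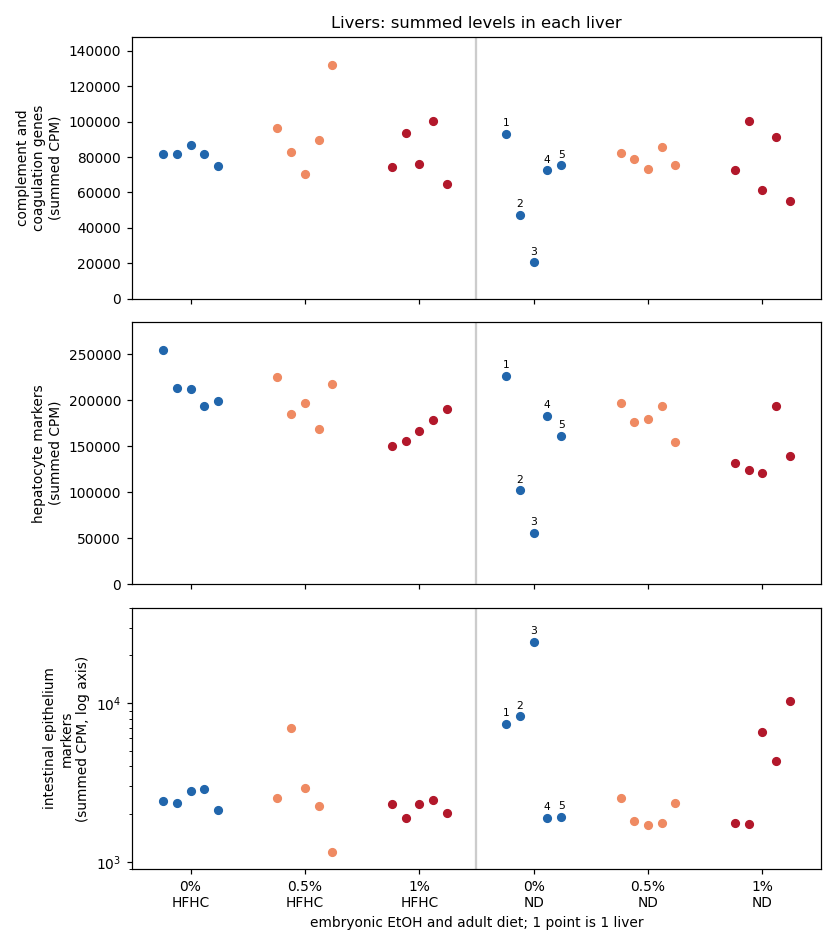
Summed CPM of the complement and coagulation genes, of hepatocyte markers and of intestinal epithelium markers (log axis) in each liver, by embryonic EtOH and diet; the control ND livers carry their numbers. Control ND livers 2 and 3 are lowest for the upper 2 sums, and liver 3 is highest for intestinal markers.

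The C3 gene c3a.1 (chromosome 1, 55460926 to 55507680) had a median of 16070 CPM over 30 livers and ran from 3635 to 25660 CPM. The fibrinogen gene fga had a median of 11750 CPM and ran from 2984 to 19270 CPM. The low end of each range was control ND liver 3. CPM are not corrected for length, so they rank no gene above another in the livers. The coefficient of variation over livers was 20.3% for f2 and 23.0% for plg, and was highest for f3a (67.8%, at 0 to 1.53 CPM), followed by 55.4% for c3a.2, 54.2% for c7a and 52.0% for the longer c6 model. The c3a.2 gene was highest in 0.5% EtOH HFHC liver 5 (4746 CPM), where crp was highest too.

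On ND, 1% EtOH livers were set against control livers, and 0.0154% of all 12989 genes passed. The member with the smallest p was c7a, with 8.599, 8.25, 5.53, 5.61 and 2.60 CPM in 1% EtOH livers, against 2.94, 3.14, 3.10, 3.29 and 3.40 CPM in control livers (0.93 ± 0.30 log2, SE, adjusted p = 0.928, edgeR). All but 1 of the EtOH livers lay above the controls. It was the only member with an unadjusted p under 0.05, 2.38% of the list where 4.40% of all genes reached it. For 0.5% EtOH on ND 0% of all genes passed, and cfd had 24.1, 28.3, 31.4, 24.6 and 34.0 CPM in 0.5% EtOH livers, against 32.5, 44.6, 55.9, 55.0 and 51.4 CPM in control livers (-0.80 ± 0.19 log2, SE, adjusted p = 0.165, edgeR). The groups overlapped at a single pair of livers, and DESeq2 called the gene. An unadjusted p under 0.05 was reached there by 2 members, 4.76% of the list where 13.7% of all genes reached it. In the same comparison all 12 tested exocrine pancreas markers (median -2.97 log2) and 4 of 5 intestinal epithelium markers (median -5.51 log2) had an unadjusted p under 0.05, all lower in 0.5% EtOH livers and none called. Their part was not tested.

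The list's median log2 fold change was 0.17 for 1% EtOH and 0.28 for 0.5% EtOH on ND. Without control ND livers 2 and 3 it was -0.18 and -0.084, and without the 6 livers with high intestinal markers it was 0.084 and 0.021. The sign of these medians turned without the pair of control livers and stayed without the 6. The pair had the lowest levels of the list among all livers and was left out after the data were seen. Lower medians without them follow from that choice. No member passed in any of these fits.

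On HFHC diet, 0.00813% of all genes passed for 1% EtOH and 0% for 0.5% EtOH. For 1% EtOH the smallest p belonged to masp1, with 63.8, 62.8, 30.9, 55.6 and 58.9 CPM in 1% EtOH livers, against 32.3, 40.5, 48.9, 39.9 and 38.9 CPM in control livers (0.44 ± 0.19 log2, SE, adjusted p = 0.493, edgeR). For 0.5% EtOH it belonged to c7a, with 5.93, 5.72, 3.01, 5.24 and 11.5 CPM in 0.5% EtOH livers, against 3.63, 3.35, 1.89, 3.52 and 1.47 CPM in control livers (1.19 ± 0.36 log2, SE, adjusted p = 0.341, edgeR). The groups overlapped in each. An unadjusted p under 0.05 was reached by 1 member for 1% EtOH and by 4 for 0.5% EtOH (c3a.2, c7a, c9 and masp1, all higher), 2.44% and 9.76% of the list where 9.65% and 11.4% of all genes reached it.

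Diet was compared within each exposure. In control livers 1.06% of all genes passed, and the smallest p of the list was that of c4, whose product forms the classical C3 convertase. It had 300.6, 148.2, 283.5, 241.3 and 283.4 CPM on HFHC diet, against 76.0, 139.0, 106.9, 148.8 and 185.5 CPM on ND (0.89 ± 0.26 log2, SE, adjusted p = 0.114, edgeR). A single HFHC liver lay among the ND livers. DESeq2 called c4. The cfd gene had 23.2, 43.0, 9.54, 16.7 and 29.8 CPM on HFHC diet, against 32.5, 44.6, 55.9, 55.0 and 51.4 CPM on ND (-1.02 ± 0.35 log2, SE, adjusted p = 0.151, edgeR), and passed when all 30 livers were fitted together. Exocrine pancreas markers summed to 249.3 to 825.8 CPM in control livers on HFHC diet and 2911 to 31650 CPM on ND, and 11 of 12 tested fell. Their part was not tested. The list's median of 0.35 was -0.0092 without control ND livers 2 and 3, the livers with the lowest levels of the list.

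In 0.5% EtOH livers 0% of all genes passed for diet. The antithrombin gene serpinc1 (chromosome 22, 15995941 to 16001921) had 2601, 2650, 2393, 2666 and 3854 CPM on HFHC diet, against 2203, 2306, 1751, 2075 and 2289 CPM on ND. The groups did not overlap, and the difference was 0.42 ± 0.15 log2 (SE, adjusted p = 0.272, edgeR). Here serpinc1 was the 1 member without overlap, where 2.95% of all genes had none. In 1% EtOH livers 1.08% of all genes passed. The protein C gene proca had 443.5, 482.1, 413.9, 448.3 and 379.0 CPM on HFHC diet, against 303.3, 309.4, 281.9, 402.6 and 277.5 CPM on ND (0.43 ± 0.14 log2, SE, adjusted p = 0.158, edgeR). The c8a gene had 861.2 ± 54.2 CPM on HFHC diet and 634.3 ± 107.9 CPM on ND (SD, n = 5 each) without overlap (0.41 ± 0.14 log2, SE, adjusted p = 0.21, edgeR). Here c8a was the 1 member without overlap, where 3.51% of all genes had none. DESeq2 called proca and c8a. In 1% EtOH livers 7 of 12 exocrine pancreas markers and 3 of 7 intestinal epithelium markers fell on HFHC diet, and the pancreas sum was 290.1 to 1204 CPM on HFHC diet against 2231 to 25260 CPM on ND. Their part was not tested. Unadjusted p under 0.05 was reached by 3 members in control livers, 4 in 0.5% EtOH livers and 5 in 1% EtOH livers, which is 7.14%, 9.76% and 12.2% of the list where 18.5%, 14.1% and 14.3% of all genes reached it, and cfd was among them in control and in 1% EtOH livers, lower on HFHC diet in each. The list's median in 1% EtOH livers was 0.16, and -0.033 without the livers with high intestinal markers.

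The interaction of EtOH and diet in livers called 0% of all genes for 1% EtOH and 4.42% for 0.5% EtOH, and no member in either, with an unadjusted p under 0.05 for 1 and 2 members, 2.38% and 4.76% of the list where 4.95% and 19.0% of all genes reached it. The smallest p of the list was that of c1qc for 1% EtOH (1.24 ± 0.53 log2, SE, adjusted p = 0.942, edgeR), whose livers in the 4 groups all lay between 1.23 and 7.204 CPM. For 0.5% EtOH it was that of c4 (-0.84 ± 0.31 log2, SE, adjusted p = 0.141, edgeR). For 0.5% EtOH 592 of all genes passed, against 0 without control ND livers 2 and 3 and 0 without 0.5% EtOH HFHC liver 2. Of the further pathway genes, clu was lower on HFHC diet in control livers (1.17 ± 0.68 CPM on HFHC diet, 11.5 ± 6.77 CPM on ND, SD, n = 5 each; -3.38 log2, adjusted p = 0.0242, edgeR), and clu, hbl3 and f2rl1.2 passed the interaction for 0.5% EtOH. In that interaction 2 genes of the list had a positive and 1 a negative difference. No other gene of that list passed in a liver comparison. In the same interaction 11 of 12 exocrine pancreas markers (median 4.34 log2) passed with a positive difference. So did 4 of 7 intestinal epithelium markers (median 9.34 log2). Their part was not tested.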

How the data were processed

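Per the labels and the study's methods, poly(A) RNA was sequenced as single-end reads and aligned to GRCz10 with STAR (versions 2.3 and 2.4 are named in the submitters' processing notes). The authors deposited raw counts per gene, made for livers with htseq-count 0.6.0 on exons; the program that made the larval counts is not given in the sources used here. The authors also deposited larval TPM, which were used for levels between genes only. The adult counts came as 4 tables of 10 livers, and the control livers held identical counts wherever they were repeated. The authors' 40 size-factor columns and their columns of fold changes and p-values were not used.

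Counts were tested with edgeR 4.0.16 (limma 3.58.1, R 4.3.3) by quasi-likelihood, with TMM scaling and the default filter on low counts, and p-values were adjusted by Benjamini-Hochberg over all genes tested, with a threshold of 0.05. Larval fits used all 12 pools, and liver fits the livers of the groups compared. The fit was tested on simulated data, where the share of false calls among larval calls was above the nominal level, so larval calls near the threshold may be liberal. Alternatives were DESeq2 1.42.0, RLE scaling, no filter, the replicate number as a block, another set of samples in the fit, and each sample left out in turn; leaving out livers with high intestinal markers, or control ND livers 2 and 3, was added after seeing the data.

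The genes and all gene lists were chosen with earlier results of these data known. For each comparison, values per sample were to be given for called genes, at most the 8 with the smallest p, and otherwise for the gene with the smallest p. Genes of the wider pathway were named when called. Replicates of a group differed beyond counting noise in all 12 larval and 60 liver pairs (chi-square per degree of freedom of at least 4.34 and 15.7), so each counted as 1 sample. Intervals are at 95%.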

Additional observations from a re-analysis of the deposited data

Results flagged for a closer look

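Over 66 groups of 5 livers (11 quantities), 6 held a single liver far from its group, by a gap to the nearest other liver of more than 0.71 of the group's range. For independent, normally distributed values this limit flags about 5% of groups. CPM can be skewed and the quantities come from the same livers, so that rate need not hold here. Hepatocyte markers summed to 193700 CPM in 1% EtOH ND liver 4, where the next liver had 138900 CPM. The same liver had 402.6 CPM of proca, where the next had 309.4 CPM. Intestinal epithelium markers summed to 24340 CPM in control ND liver 3, where the next had 8287 CPM, and exocrine pancreas markers summed to 4844 CPM in 0.5% EtOH ND liver 4, where the next had 1462 CPM. The masp1 gene stood at 30.92 CPM in 1% EtOH HFHC liver 3, below the next at 55.61 CPM, and serpinc1 at 3854 CPM in 0.5% EtOH HFHC liver 5, above the next at 2666 CPM. These livers stayed in the comparisons of the report, and their part in them was not tested beyond leaving out each liver in turn, which called no gene of the list.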

How the results depend on the processing

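In larvae, the count of genes of the list called for diet kept within 1.5 times its value under every alternative other than leaving out a pool. With 1 pool left out it was 17 to 23 in EAE larvae and 9 to 15 in control larvae. For EtOH on ND it was 0 with only the ND pools fitted, and 0 to 1 with 1 pool left out. For EtOH on HFHC diet it was 2 with DESeq2, 1 without the filter and 0 to 1 with 1 pool left out, and for the larval interaction 2, 1 and 0 to 2. In livers DESeq2 called 1 gene for 0.5% EtOH on ND (cfd), 1 for diet in control livers (c4) and 2 for diet in 1% EtOH livers (c8a, proca), and fitting all 30 livers called 1 for diet in control livers (cfd). No gene was called with any liver left out. The causes were not tested. Replicate numbers did not pair the samples, with correlations of -0.526 to 0.462 between same-numbered samples. The replicate block called 22 genes for diet in EAE larvae, 14 in control larvae, 1 for EtOH on ND, 0 for EtOH on HFHC diet and 0 for the interaction, and 0 in livers.

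Counts over all genes moved more. DESeq2 called 557 genes for EtOH in larvae on ND where edgeR called 257, 131 on HFHC diet where edgeR called 46, and 263 for the interaction where edgeR called 50. Without the filter these were 414, 100 and 193, and with only the compared pools 145 and 92 for EtOH; the block gave 22 on HFHC diet. In livers DESeq2 called 40, 89, 1041 and 138 genes for 1% EtOH (ND, then HFHC diet) and 0.5% EtOH (ND, then HFHC diet), where edgeR called 2, 1, 0 and 0. For diet in control, 0.5% and 1% EtOH livers DESeq2 called 1476, 368 and 1034, where edgeR called 130, 0 and 136; the block gave 0, 1 and 17, and the fit without the filter gave 297 in 1% EtOH livers. For the 0.5% EtOH interaction DESeq2 called 1329 and the block 40, where edgeR called 592. All 30 livers in 1 fit called 1132 for 0.5% EtOH on ND, 1580 for diet in control livers and 1125 for that interaction. With DESeq2 the median log2 fold change over all genes lay at -0.1032 for 0.5% EtOH on ND, -0.1007 and -0.1265 for diet in control and 1% EtOH livers, and 0.1049 for the 0.5% EtOH interaction. Depth limits genes of few counts, among them the C1q chains in larvae and livers, and c7a and the tissue factor genes in livers.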
